A study of Mus musculus with 10 samples.

Results

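The laminin chains examined here are 9 genes, Lama1, Lama2, Lama3, Lama4, Lama5, Lamb1, Lamb2, Lamb3 and Lamc1, of 43629 gene identifiers in the count tables. They were found by symbol, and all 9 had a row and passed the filter on low counts. The family was chosen by the rise of Lama3 between the groups compared here. The control against Dot1l-cKO values of the members are therefore a description, no p-value is given for a member in this contrast, and the number of members past the threshold is given only beside the share of all genes past it.

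The samples are total RNA of the dorsal telencephalon, the wall of the embryonic forebrain that forms the cerebral cortex, of C57BL/6 mouse embryos at E14.5. The 5 control samples carried no Cre and 1 floxed allele of Dot1l (Dot1l-cKO f/+). The 5 Dot1l-cKO samples carried a Cre allele active in the forebrain and 2 floxed alleles (Dot1l-cKO f/f). Dot1l encodes an enzyme that methylates a lysine in the core of histone H3, and the comparison asks which transcripts change when it is deleted. Loss of Dot1l and the Cre allele itself cannot be told apart in this comparison, since controls lacked Cre. The labels number the samples as biological replicates and do not say whether embryos were pooled.

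Laminins are secreted trimers of an α, a β and a γ chain, wound into a coiled coil. They polymerise into the first sheet of a basement membrane, and nidogen, collagen IV and the proteoglycans perlecan and agrin are added to it. In the forebrain these sheets lie at the pial surface, where the endfeet of radial glia attach, around vessels, and early in development also in the wall of the ventricle. The α3 and β3 chains are partners in a trimer known from the skin and other epithelia, where it joins the hemidesmosome.

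Total counts ranged from 54202349 to 66556034 per sample, and levels are given as CPM, counts scaled to a TMM-normalised library total of 1000000. The tables of normalised counts carry an unexplained number in their headers. It is 57 for replicates 2 and 3 of both groups, which had at most 0.492% of counts in mitochondrial rRNA against at least 5.79% in the other 6 samples. Differences are therefore also given within these sets of 4 and 6. The gene-level count of Dot1l was 37.3 ± 4.04 CPM in controls against 39.4 ± 11.7 CPM in Dot1l-cKO (n = 5 per group, SD) and sums all exons. It ranged from 31.4 to 41.5 CPM in controls and from 20.1 to 51.7 CPM in Dot1l-cKO (edgeR adjusted p = 0.864). This count therefore does not show the deletion, and single exons were not examined. Of the dorsal telencephalon markers, Neurod6 stood at 484 ± 44.3 CPM in controls and Emx1 at 89.7 ± 15.1 CPM. Markers of other tissues varied between samples. The summed meningeal fibroblast markers ranged from 26.0 to 873 CPM in controls and from 31.4 to 801 CPM in Dot1l-cKO. None of these 8 genes passed the test between the groups, a count over too few genes to set apart from the 7.11% of all genes tested. In bulk tissue, fewer cells of a type and less RNA per cell cannot be told apart.

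Lama3 and Lamb3 were the chains with higher levels in every Dot1l-cKO sample than in any control, and the other 7 chains overlapped between the groups. Both were also the chains with the lowest level in this tissue. Of the 9 members, 2 passed the threshold of edgeR's quasi-likelihood test (adjusted p-value under 0.05), both higher in Dot1l-cKO. Among all 17039 genes tested, 7.11% passed and 5.67% passed with a higher level in Dot1l-cKO. Non-overlapping groups were found for 8.34% of all genes tested, and for 6.17% with the higher level in Dot1l-cKO. Because the rule used this contrast, nothing is read from these counts. The median log2 fold change was 0.14 over the 9 members and -0.0056 over all genes tested. With the replicate number as a block, 2 members passed, where 9.41% of all genes did.

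**Figure D1:**
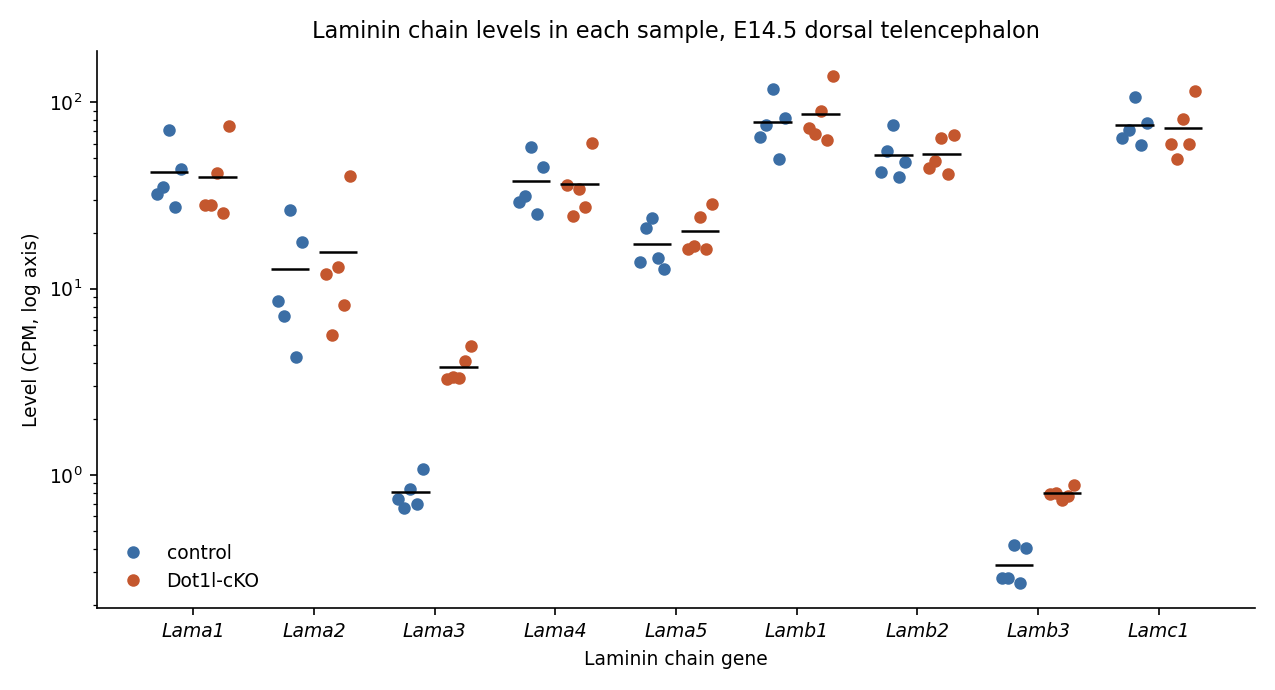
Level of each laminin chain (CPM, log axis) in the 5 control samples (blue) and the 5 Dot1l-cKO samples (orange), with replicates 1 to 5 from left to right and a bar at each group mean. Lama3 lies between 0.667 and 1.08 CPM in controls and between 3.26 and 4.91 CPM in Dot1l-cKO, Lamb3 between 0.265 and 0.419 and between 0.735 and 0.886 CPM, and the groups of the other 7 chains overlap.

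The α chains carry the large globular domain by which laminins bind receptors on cells. Lama3 (ENSMUSG00000024421), the gene of the epithelial α3 chain, spans chromosome 18, 12333819 to 12583013 (GRCm38, plus strand). Its level was 0.744, 0.667, 0.838, 0.701 and 1.08 CPM in controls 1 to 5, from 37 to 67 counts per sample. In Dot1l-cKO replicates 1 to 5 it was 3.26, 3.35, 3.33, 4.09 and 4.91 CPM, from 173 to 305 counts. The lowest Dot1l-cKO sample lay above the highest control, and replicate 5 was the highest sample of each group. The means of 0.806 ± 0.167 and 3.79 ± 0.714 CPM (n = 5 per group, SD) differed 4.70-fold, with a fitted log2 fold change of 2.23 (SE 0.19). It was 2.27 (SE 0.26) within the 6 samples outside header number 57 and 2.16 (SE 0.26) within the 4 samples with it. The 4 annotated genes that overlap Lama3 were at no more than 0.0430 CPM.

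The other α chains stood above Lama3 per length in every control sample. Lama1 (chromosome 17, 67697259 to 67822647) encodes the α1 chain of early embryonic basement membranes. It was at 32.0, 35.3, 71.4, 27.4 and 44.1 CPM in controls 1 to 5. In Dot1l-cKO it was at 27.9, 28.0, 41.7, 25.6 and 74.3 CPM. Control replicate 3 and Dot1l-cKO replicate 5 were the high samples, the groups overlapped, and the log2 fold change was -0.09 (SE 0.33).

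Lama2 (chromosome 10, 26980036 to 27619758) encodes the α2 chain, found around muscle fibres and nerves and lost in a congenital muscular dystrophy. Its levels were 8.58, 7.14, 26.3, 4.30 and 17.7 CPM in control replicates 1 to 5 against 11.96, 5.62, 13.1, 8.13 and 40.1 CPM in Dot1l-cKO. Among the 9 members it varied most within the groups, by 6.12-fold between the lowest and highest control and 7.14-fold in Dot1l-cKO. Its log2 fold change was 0.30 with an SE of 0.58.

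Lama4 (chromosome 10, 38965515 to 39110188) encodes the α4 chain of vessel walls. It was at 29.1, 31.3, 57.7, 25.1 and 45.1 CPM in control replicates 1 to 5 and at 35.9, 24.6, 34.3, 27.4 and 60.7 CPM in Dot1l-cKO. Here too control replicate 3 and Dot1l-cKO replicate 5 were highest, and the log2 fold change was -0.04 (SE 0.28).

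Lama5 (chromosome 2, 180176373 to 180225859) encodes the α5 chain, the broadly expressed α chain of later basement membranes. Control replicates 1 to 5 were at 14.0, 21.1, 24.0, 14.6 and 12.7 CPM and Dot1l-cKO replicates at 16.3, 16.9, 24.2, 16.3 and 28.3 CPM. The ranges overlapped over most of their length, and the log2 fold change was 0.24 (SE 0.22).

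Among the β chains, each of which gives the trimer a short arm, Lamb3 alone separated the groups. Lamb3 (ENSMUSG00000026639) spans chromosome 1, 193207699 to 193343878 (plus strand), and encodes the β3 chain, the partner of α3 in the epithelial trimer. Its level was 0.281, 0.281, 0.419, 0.265 and 0.403 CPM in control replicates 1 to 5, from 14 to 28 counts per sample. In Dot1l-cKO it was 0.792, 0.798, 0.735, 0.769 and 0.886 CPM, from 42 to 55 counts. All 5 Dot1l-cKO samples lay above all controls. The means were 0.330 ± 0.0749 and 0.796 ± 0.0560 CPM (n = 5 per group, SD), 2.41-fold apart, with a log2 fold change of 1.26 (SE 0.19). Within the 6 samples outside header number 57 it was 1.35 (SE 0.27), and within the 4 with it 1.14 (SE 0.36). Of the 6 annotated genes that overlap Lamb3, the 2 on the same strand were at no more than 0.0699 CPM. The highest on any strand was at 1.49 CPM, above Lamb3 itself, and counting was by strand.

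Lamb1 (chromosome 12, 31265234 to 31329644) encodes the β1 chain, whose loss in people leaves a cobblestone malformation of the cortex. It stood at 65.0, 75.4, 118, 49.7 and 82.7 CPM in control replicates 1 to 5 and at 73.0, 67.8, 89.3, 62.9 and 138 CPM in Dot1l-cKO, a log2 fold change of 0.14 (SE 0.25). Lamb2 (chromosome 9, 108479736 to 108490530) encodes the β2 chain of synapses, kidney and retina. Its levels were 42.5, 55.0, 75.6, 39.6 and 47.8 CPM in controls and 44.6, 48.3, 64.1, 41.3 and 66.6 CPM in Dot1l-cKO, a log2 fold change of 0.02 (SE 0.19). Both chains overlapped between the groups, again with control replicate 3 and Dot1l-cKO replicate 5 at the top.

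Lamc1 (chromosome 1, 153218922 to 153332786) encodes the γ1 chain, which most laminin trimers share. It was at 64.4, 71.1, 106, 59.1 and 77.7 CPM in control replicates 1 to 5 and at 59.7, 49.9, 81.1, 59.5 and 115 CPM in Dot1l-cKO. The groups overlapped and the log2 fold change was -0.05 (SE 0.23).

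Lamc3, outside the 9 members, is the gene of the γ3 chain, whose loss in people disturbs occipital cortex folding. It was at 10.9 ± 8.41 CPM in controls against 10.3 ± 11.7 CPM in Dot1l-cKO (n = 5 per group, SD). Its log2 fold change was -0.08 (SE 0.72, edgeR adjusted p = 0.968) and depended on single samples. It was -1.06 without Dot1l-cKO replicate 5, 0.49 without control replicate 3 and -0.44 (SE 0.46) with the replicate block. Within the 6 samples outside header number 57 it was 0.93 (SE 0.81) and within the 4 with it -1.58 (SE 0.77).

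**Figure D2:**
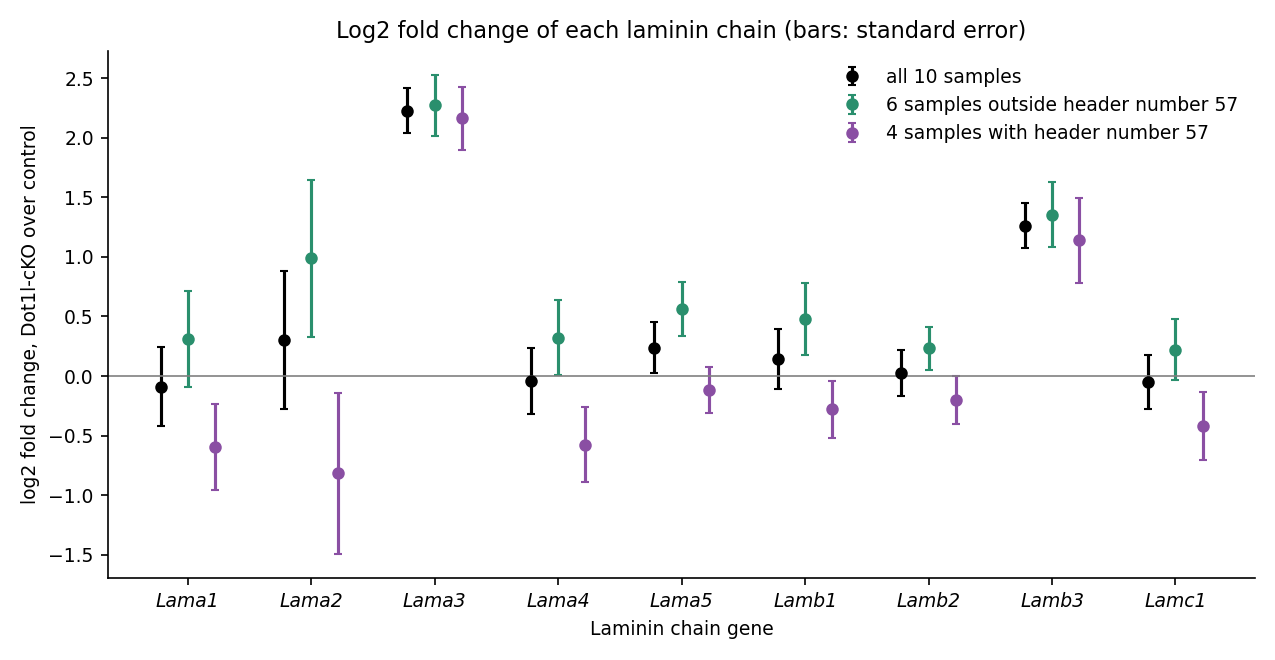
Log2 fold change of each laminin chain, Dot1l-cKO over control, from edgeR over all 10 samples (black), over the 6 samples outside header number 57 (green) and over the 4 samples with it (purple), with bars of 1 standard error. Lama3 lies between 2.16 and 2.27 and Lamb3 between 1.14 and 1.35 in the 3 fits, while the other 7 chains are above 0 in green and below 0 in purple.

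The log2 fold changes of the 7 chains that did not pass ranged from -0.09 to 0.30 with standard errors from 0.19 to 0.58. All 7 were above 0 within the 6 samples outside header number 57 and below 0 within the 4 samples with it. For Lama2 these values were 0.99 (SE 0.66) and -0.82 (SE 0.68), and for Lama4 they were 0.32 (SE 0.31) and -0.58 (SE 0.32). The difference between the sets of samples was not tested. Control replicate 3 belongs to header number 57 and Dot1l-cKO replicate 5 to the other set. Without these 2 samples, which were also the highest in meningeal markers of their groups, the log2 fold change of Lama2 was 0.03 (SE 0.40), that of Lama3 2.12 (SE 0.19) and that of Lamb3 1.31 (SE 0.21).

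Levels between genes are compared per length, as CPM per kilobase of the joined exons. In controls the order from the top was Lamc1 at 9.16 ± 2.24, Lamb2 at 8.56 ± 2.36 and Lamb1 at 7.88 ± 2.57 CPM per kilobase (n = 5 per group, SD). The ranges of these 3 chains overlapped, so their order is within the spread between samples. Lama1 at 4.34 ± 1.81 and Lama4 at 3.12 ± 1.12 CPM per kilobase were the leading α chains, and their ranges overlapped as well, although Lama1 was above Lama4 in 5 of 5 controls. The range of Lama4 overlapped that of Lamc3. Lamc3, Lama5 and Lama2 followed at 1.79 ± 1.38, 1.52 ± 0.438 and 0.784 ± 0.555 CPM per kilobase, with overlapping ranges. The epithelial chains Lama3 and Lamb3 came last of the 10 compared, Lama3 at 0.0750 ± 0.0155 and Lamb3 at 0.0499 ± 0.0113 CPM per kilobase. Lama3 did not overlap Lama2 above it, while Lama3 and Lamb3 overlapped each other. In Dot1l-cKO, Lama3 was at 0.352 ± 0.0664 CPM per kilobase, and Lamb3 at 0.120 ± 0.0085 was again the lower of the pair.

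Summed per length over the 5 α chains, Lama3 made up 0.762% in controls and 3.45% in Dot1l-cKO. Lama1 made up 44.1% and 39.9%. Lamb3 made up 0.303% of the 3 β chains in controls and 0.687% in Dot1l-cKO. Both epithelial chains were a small part of the laminin RNA per length in both groups.

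**Figure D3:**
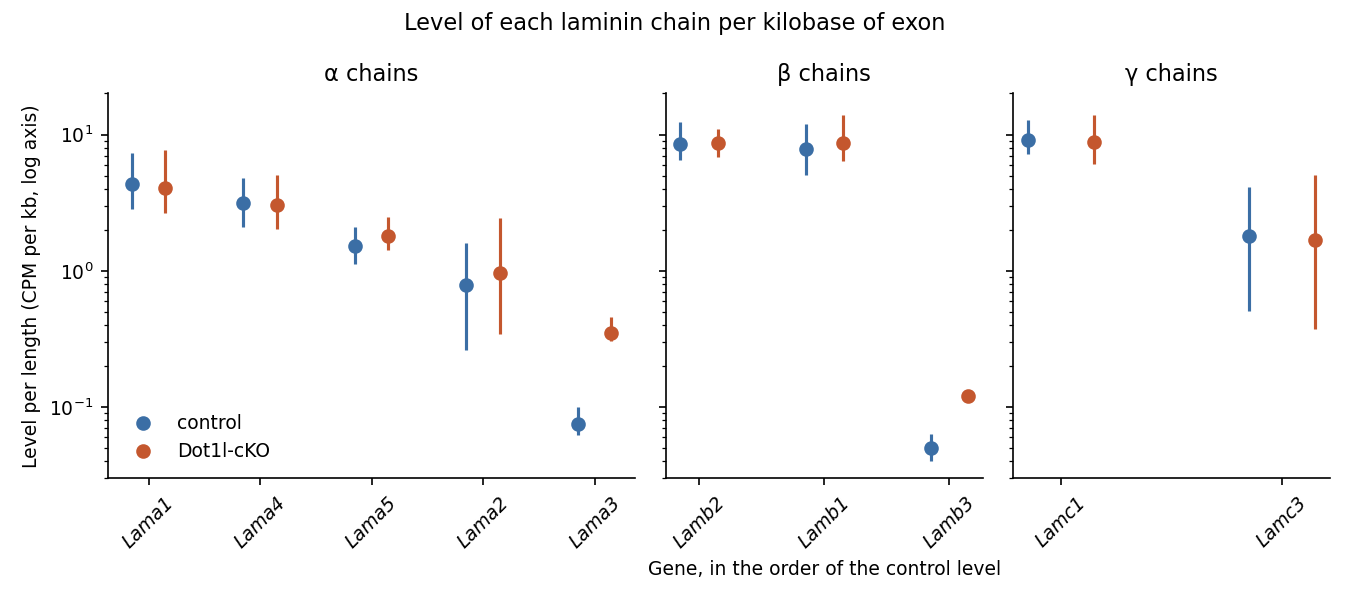
Level per length (CPM per kilobase of exon, log axis) of 10 laminin chains, with points at the group mean and lines from the lowest to the highest of 5 samples, in control (blue) and Dot1l-cKO (orange). Lama3 and Lamb3 are the lowest chains in controls, at 0.0750 and 0.0499, and are the chains whose lines do not overlap between the groups.

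Within each genotype, the levels of the chains were set against the markers of meninges and vessels in the same samples. These relations use deviations from the mean of each genotype in log2 CPM and so are independent of the difference between genotypes. The family reported is 40 relations, 10 chains against 4 marker lists, with exact permutation (two-sided) and p-values adjusted over the 40. Same-numbered samples deviated together, so they were moved together within the genotypes, which leaves 120 arrangements and a smallest p of 0.00833. With the mean level of 8 meningeal fibroblast markers (Col1a1, Col1a2, Col3a1, Dcn, Lum, Foxc1, Tbx18, Foxd1), Pearson's r was 0.91 for Lama4 (permutation p = 0.00833, the smallest these arrangements can give, adjusted 0.0222) and Spearman's rho was 0.98 (permutation p = 0.00833, adjusted 0.0370). Lama2 gave r = 0.91, Lamb1 0.90, Lamc1 0.84, Lama1 0.84 and Lamb2 0.76. Lama5 gave r = 0.61. Of the 7 chains other than Lama3 and Lamb3, the adjusted permutation p passed for 3 by r and 3 by rho, and for Lamc1, Lama1, Lamb2 and Lama5 it was 0.0595, 0.0513, 0.0805 and 0.101 by r. Permuting the samples freely within each genotype (14400 arrangements) passed 6 by r and 6 by rho. Without the 2 samples farthest from the median of the markers, control replicate 4 and Dot1l-cKO replicate 4, r over the 7 chains was 0.57 to 0.93. Control replicate 3 and Dot1l-cKO replicate 5, the highest of their groups in these markers, stayed in. Within the 6 samples outside header number 57 it was 0.45 to 0.90, and the other 4, with 2 samples per genotype, were too few to give a value. The 7 chains also moved with each other, with r of their deviations between 0.57 and 0.99 and a median of 0.90 over 21 pairs.

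Outside the members, Lamc3 followed the meningeal markers with r = 0.97 (adjusted permutation p = 0.0222). For Lama3 r was 0.40 and rho 0.28, with adjusted permutation p-values of 0.425 and 0.559. For Lamb3 r was 0.63 (adjusted permutation p = 0.0455) and rho 0.68 (adjusted permutation p = 0.0556). With the meningeal marker level as a covariate, the log2 fold changes were 2.26 (SE 0.18) for Lama3 and 1.30 (SE 0.18) for Lamb3, and for Lama2 the value was 0.50 (SE 0.25).

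**Figure D4:**
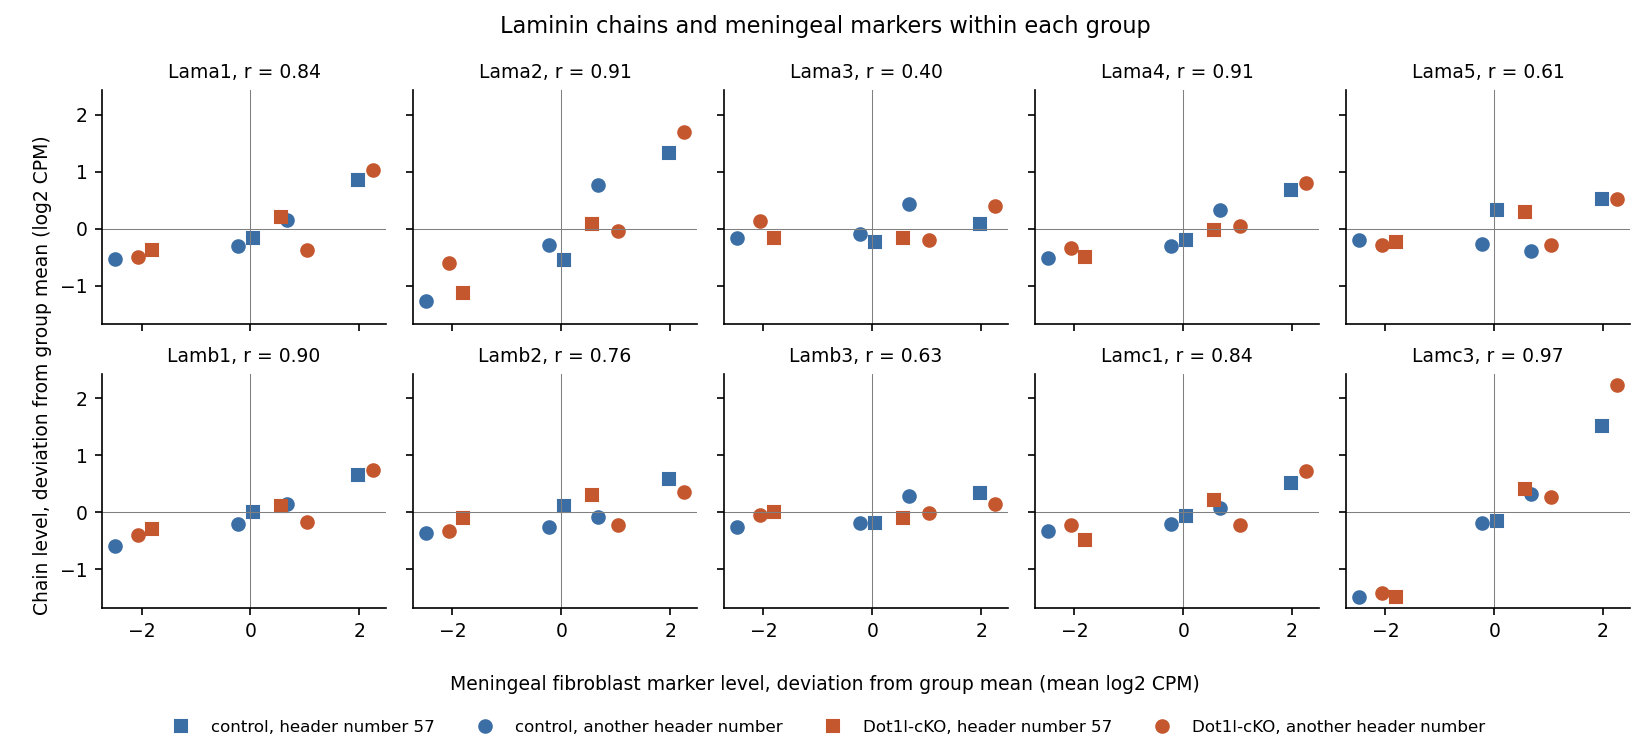
Deviation of each chain from its group mean (log2 CPM, vertical) against the deviation of the mean of 8 meningeal fibroblast markers (log2 CPM, horizontal) in 10 samples, with squares for header number 57 and r above each panel. Lama2, Lama4 and Lamb1 climb from left to right with r of 0.90 to 0.91, while Lama3 has r = 0.40.

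With 8 endothelial markers, r was 0.98 for Lama2 and 0.98 for Lama4, with adjusted permutation p-values of 0.0222 each. Over the 7 chains, 5 passed by r and 2 by rho, and with free permutation 5 and 4. Lamb2 (r = 0.65) fell to 0.14 and Lama5 (r = 0.52) to -0.27 without the 2 samples farthest from the median. These relations rest on the samples left out, Dot1l-cKO replicate 5 and control replicate 3. Among the chains that passed by r, Lama1 (r = 0.89) fell to 0.58, Lamb1 (r = 0.89) to 0.63 and Lamc1 (r = 0.90) to 0.61. Lama2 stayed at 0.95 and Lama4 at 0.94. Lama3 went to 0.59 and Lamb3 to 0.69. Within the 6 samples outside header number 57, r over the 7 chains was 0.68 to 0.99. For Lama3 r with the endothelial markers was 0.72 (adjusted permutation p = 0.0455) and for Lamb3 it was 0.75 (adjusted permutation p = 0.0513). With 6 pericyte markers, 2 of the 7 chains passed by r and 0 by rho, against 5 and 4 with free permutation. Lama2 was highest at r = 0.89 (adjusted permutation p = 0.0222) and stood at 0.86 without the 2 farthest samples, Dot1l-cKO replicates 2 and 5. Within the 6 samples outside header number 57, r with the pericyte markers was 0.50 to 0.98. For Lama3 r with the pericyte markers was 0.68 (adjusted permutation p = 0.118) and for Lamb3 it was 0.62 (adjusted permutation p = 0.0513). The endothelial and pericyte lists held no gene past the threshold between the genotypes, where 7.11% of all genes tested passed. Counts over lists this short do not set them apart from that share.

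Microglia, the resident phagocytes of the brain, were the marker list whose summed level did not overlap between the groups. All 6 markers (Cx3cr1, Csf1r, Aif1, C1qa, C1qb, P2ry12) were higher in Dot1l-cKO and passed the test. Over all genes tested, 5.67% passed with a higher level in Dot1l-cKO. P2ry12, a purine receptor, rose from 3.19 ± 0.302 to 6.84 ± 0.403 CPM (n = 5 per group, SD; edgeR adjusted p = 0.00023). The summed markers ranged from 31.6 to 54.2 CPM in controls and from 63.9 to 97.5 CPM in Dot1l-cKO. Within genotypes, the deviation of the microglial markers correlated with that of Lama3 at r = 0.77 (adjusted permutation p = 0.0392) and rho = 0.62 (adjusted permutation p = 0.107). For Lamb3, r was 0.88 (adjusted permutation p = 0.0513) and rho 0.78 (adjusted permutation p = 0.0694). The 2 samples farthest from the median of these markers over both genotypes were control replicates 1 and 4, a choice that partly follows the genotype difference. Without them r was 0.75 for Lama3 and 0.81 for Lamb3. Control replicate 3 and Dot1l-cKO replicate 5, the highest of their groups in these markers, stayed in. Within the 6 samples outside header number 57 r was 0.96 and 0.94. Beside the r of 0.77 and 0.88 with the microglial markers stand 0.72 and 0.75 with the endothelial ones, and whether the lists differ was not tested. Over the other 7 chains r was 0.37 to 0.86, and 5 passed by r and 2 by rho, and with free permutation 5 and 1. The part of the microglial markers in the group difference of Lama3 and Lamb3 was not tested, and with marker ranges that do not overlap between the groups the genotype and these markers cannot be told apart by a covariate.

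Markers of epidermis, a tissue that uses the epithelial trimer, were low, as were Lama3 and Lamb3 themselves (means of 0.806 and 0.330 CPM in controls). The 6 epidermal markers (Krt5, Krt14, Krt15, Trp63, Cdh1, Epcam) summed to 1.43 to 11.2 CPM in controls and 2.99 to 4.77 CPM in Dot1l-cKO. Krt14, the keratin partner of Krt5 in basal skin cells, was at 0.114 ± 0.164 and 0.0832 ± 0.0427 CPM (n = 5 per group, SD) and was too low to test. Of the 4 tested, Trp63, a transcription factor of basal epithelia, passed. It rose from 0.274 ± 0.0881 to 0.596 ± 0.146 CPM, a log2 fold change of 1.11 (SE 0.27, edgeR adjusted p = 0.0306). Krt5 and Cdh1 had log2 fold changes below 0, at -1.38 (SE 0.83) and -0.59 (SE 0.95). That of Epcam was 0.46 (SE 0.45), and the median over the 4 was -0.07. Choroid plexus markers summed to 2.00 to 634 CPM in controls and 3.68 to 153 CPM in Dot1l-cKO, and none of the 5 passed. Of 4 markers of Cajal-Retzius cells and the hem, Lhx5 passed (log2 fold change 0.82, SE 0.22, edgeR adjusted p = 0.0443). Reln, the most abundant of the 4, was at 461 ± 94.9 CPM in controls against 741 ± 223 CPM in Dot1l-cKO (edgeR adjusted p = 0.0704). With the replicate block Reln passed (edgeR adjusted p = 0.00412), where 9.41% of all genes tested did. Ventral telencephalon markers, several of which are also known from interneurons that migrate into the dorsal wall, summed to 55.7 to 310 CPM in controls and 17.6 to 99.99 CPM in Dot1l-cKO, and 1 of 8, Lhx6, passed and was lower. Of the 8 dorsal markers 1, Pax6, passed and was lower (log2 fold change -0.36, SE 0.09, edgeR adjusted p = 0.0294). No erythroid marker of 6 passed. Over all genes tested 7.11% passed, and counts over lists this short do not set them apart from that share. The part of these tissues in the levels of Lama3 and Lamb3 was not tested.

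Of 12 other basement membrane genes tested, 1 passed, where 7.11% of all genes tested did. This was Col4a4, a collagen IV chain of kidney and other specialised basement membranes. It rose from 0.638 ± 0.0797 to 1.01 ± 0.188 CPM (n = 5 per group, SD), with a log2 fold change of 0.66 (SE 0.18, edgeR adjusted p = 0.0469) with no overlap of the groups. The fit with the replicate block did not call it (edgeR adjusted p = 0.0584), and it also failed without Dot1l-cKO replicate 1, 2, 3 or 4 or any single control, with adjusted p-values of 0.0613 to 0.117. The median log2 fold change over the 12 was -0.07, and 3 had an unadjusted p under 0.05, where 20.6% of all genes tested did. Agrn, the proteoglycan agrin, was at 289 ± 36.2 CPM in controls against 255 ± 36.5 CPM in Dot1l-cKO (edgeR adjusted p = 0.422). Col4a1, a main collagen IV chain, was at 245 ± 128 and 227 ± 144 CPM (edgeR adjusted p = 0.916).

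Receptors that hold cells to laminin, the integrins, dystroglycan (Dag1) and Bcam, gave no call among 9 tested by edgeR, and 1 had an unadjusted p under 0.05. Over all genes tested these shares were 7.11% and 20.6%. DESeq2 called 0 of them, where it called 10.4% of all genes with an adjusted p. Their median log2 fold change was 0.16. Itgb1, the β1 integrin subunit shared by most laminin receptors, was at 195 ± 33.6 CPM in controls against 193 ± 26.3 CPM in Dot1l-cKO (n = 5 per group, SD), with a log2 fold change of -0.02 (SE 0.13). Itga6, the α6 subunit, was at 109 ± 11.2 and 117 ± 7.89 CPM, a log2 fold change of 0.11 (SE 0.08, edgeR adjusted p = 0.511).

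Hemidesmosome genes, whose products tie the epithelial trimer to keratin, gave no call among 6 tested by edgeR, with a median log2 fold change of 0.24 and 1 unadjusted p under 0.05. DESeq2 called 1 of them. Over all genes the shares were 7.11% by edgeR, 20.6% by unadjusted p and 10.4% by DESeq2. Plec, the linker plectin, was at 36.0 ± 12.5 CPM in controls against 40.4 ± 18.2 CPM in Dot1l-cKO (n = 5 per group, SD; edgeR adjusted p = 0.807). The gene called by DESeq2, named after its values were seen, was Cd151, a tetraspanin that binds laminin-binding integrins (log2 fold change 0.31, SE 0.09; edgeR adjusted p = 0.0525, DESeq2 adjusted p = 0.0262).

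Dystroglycan binds laminin through a sugar chain that O-mannosyl glycan enzymes build, and loss of these enzymes is known to breach the pial basement membrane. EdgeR called none of 9 such genes tested, 3 had an unadjusted p under 0.05 and DESeq2 called 0. Over all genes these shares were 7.11%, 20.6% and 10.4%, so counts over 9 genes do not set the list apart. The median log2 fold change over the 9 was 0.11. Pomgnt1, an early enzyme of the pathway, was at 58.8 ± 2.15 CPM in controls against 65.4 ± 5.57 CPM in Dot1l-cKO (n = 5 per group, SD), with a log2 fold change of 0.15 (SE 0.07, edgeR adjusted p = 0.239). With the replicate block 1 of the 9 passed, where 9.41% of all genes tested did. It was B3galnt2, an enzyme that extends the core of the chain. It was at 37.6 ± 5.17 and 30.6 ± 3.94 CPM, with an edgeR adjusted p of 0.169 without the block and 0.0255 with it.

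Netrins share the terminal domain of laminin short arms and guide axons. Of 6 listed, 5 had a row and 4 could be tested, and edgeR called none of these, while 2 had an unadjusted p under 0.05 and DESeq2 called 1. Over all genes these shares were 7.11%, 20.6% and 10.4%, and 9.41% passed with the replicate block. Ntng2, a membrane-anchored netrin, was at 27.8 ± 3.48 CPM in controls against 40.8 ± 9.67 CPM in Dot1l-cKO (n = 5 per group, SD), with a log2 fold change of 0.55 (SE 0.17, edgeR adjusted p = 0.0740). Dot1l-cKO replicate 2, at 24.7 CPM, lay within the control range of 23.0 to 31.8 CPM, and without it the edgeR adjusted p was 0.00430. Ntng2 did not pass without Dot1l-cKO replicate 1, 3 or 4, nor without control replicate 1, 2, 4 or 5. With the replicate block Ntng2 passed (edgeR adjusted p = 0.0165). Ntn4, a secreted netrin of basement membranes that binds laminin, was at 24.0 ± 3.35 and 19.6 ± 3.39 CPM (edgeR adjusted p = 0.239) and passed with the block (edgeR adjusted p = 0.0369).

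No gene around Lama3 passed the test, a count over too few genes to set apart from the 7.11% of all genes tested. On the genome, 11 protein-coding genes have a span within 500 kb of that of Lama3, of which 10 could be tested and Hrh4 was too low. None of the 10 was called by edgeR, against a log2 fold change of 2.23 for Lama3. Of the 10, 2 had an unadjusted p under 0.05, DESeq2 called 1 and the replicate block 0. Over all genes these shares were 20.6%, 10.4% and 9.41%. The groups did not overlap for 2 of the 10, Tmem241 and Osbpl1a, both higher in Dot1l-cKO, against 6.17% of all genes tested. The log2 fold change was above 0 for 9 of the 10. The values of the 10 ranged from -0.21 for Ttc39c (SE 0.10) to 0.36 for Cabyr (SE 0.32), with a median of 0.10. Ankrd29, whose start is 28.0 kb before that of Lama3, was at 1.82 ± 0.918 CPM in controls against 2.20 ± 0.721 CPM in Dot1l-cKO (n = 5 per group, SD), with a log2 fold change of 0.27 (SE 0.33, edgeR adjusted p = 0.698). Riok3, a kinase gene, was at 99.9 ± 4.83 and 105 ± 10.8 CPM (edgeR adjusted p = 0.667), and Npc1, a cholesterol transporter of lysosomes, at 47.8 ± 2.64 and 49.8 ± 5.05 CPM (edgeR adjusted p = 0.733). The gene called by DESeq2, named after its values were seen, was Tmem241, with a log2 fold change of 0.28 (SE 0.09; edgeR adjusted p = 0.0841, DESeq2 adjusted p = 0.0209).

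**Figure D5:**
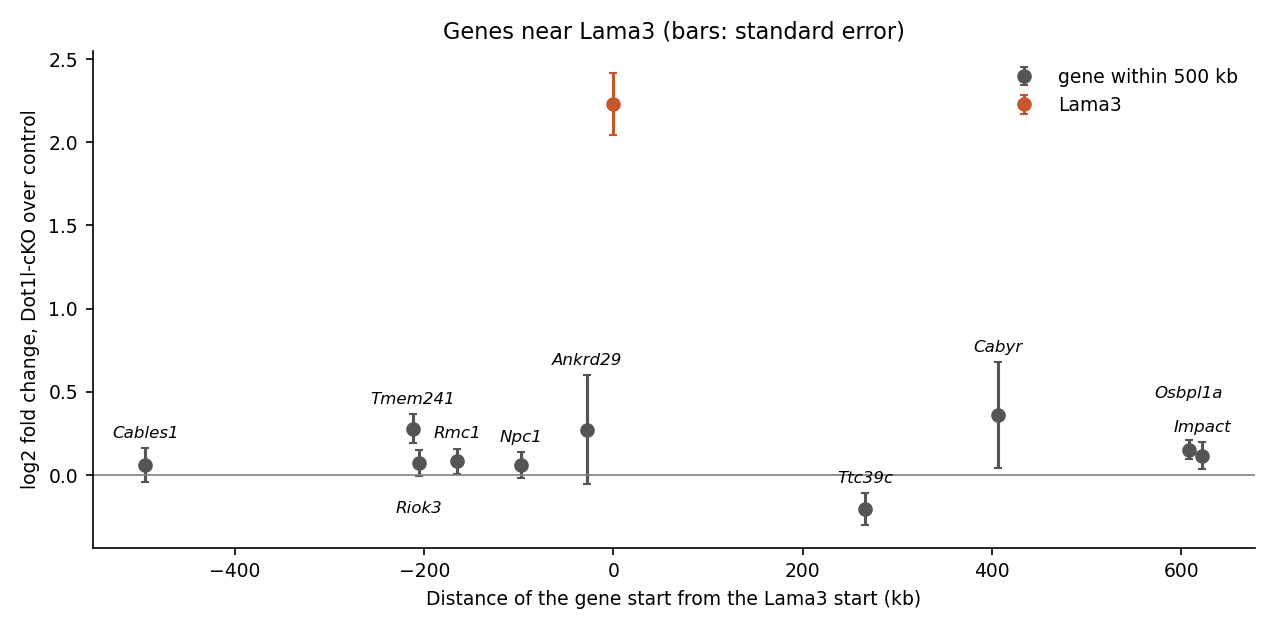
Log2 fold change, Dot1l-cKO over control, with bars of 1 standard error, of 10 tested genes near Lama3 (grey) and of Lama3 (orange), against the distance of the gene start from the Lama3 start in kb. Lama3 is at 2.23, and the 10 other genes lie between -0.21 and 0.36.

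Over the 10 samples the Pearson r of Lama3 and Lamb3 in log2 CPM was 0.98, rank 13 of 17038 genes compared with Lama3, and this r includes the difference between genotypes that the rule used. The genes most like Lama3 on this measure were Sec24d, a coat protein of vesicles leaving the endoplasmic reticulum (r = 0.99), Rasl12 (r = 0.99), Capn3, a calcium-dependent protease of muscle (r = 0.98), Gm12695 (r = 0.98) and Thsd7b (r = 0.98). All 5 had higher means in Dot1l-cKO, from 0.0502 against 0.411 CPM for Gm12695 to 23.0 against 49.3 CPM for Sec24d. With the genotype means taken away, r of Lama3 with Lamb3 was 0.73, rank 403, and the closest genes were C1qtnf1 (r = 0.96), Ccdc159 (r = 0.95), Zap70 (r = 0.92), Rasip1 (r = 0.91) and Cnr2 (r = 0.91). Lama2 (r = 0.71), Lama4 (r = 0.67) and Lama1 (r = 0.59) followed Lamb3 in this order, and Lama5 (r = 0.07) was lowest of the 9 members. Seen from Lamb3, r was 0.80 with Lama4, 0.78 with Lama2 and 0.72 with Lamb1, against 0.73 with Lama3. These values describe 10 samples that share libraries and depth, and the genes were picked for their r.

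Upstream sequence is shown for Lamb3, the chain with separated groups for which the RefSeq promoter table (GRCm38.p6) holds windows, and for Lama5, a chain whose groups overlapped. Of the 9 members 5 had a window. Lamb3 had 2, of which the one listed first is shown. Each run is 240 bases long, written 5′ to 3′ on the strand of the gene, ends just before the annotated start, and has its CG pairs in capitals. The Lamb3 run is chr1:193301744-193301983 on the plus strand, inside an intron of longer annotated Lamb3 transcripts. The Lama5 run is chr2:180225870-180226109 on the minus strand.
Lamb3: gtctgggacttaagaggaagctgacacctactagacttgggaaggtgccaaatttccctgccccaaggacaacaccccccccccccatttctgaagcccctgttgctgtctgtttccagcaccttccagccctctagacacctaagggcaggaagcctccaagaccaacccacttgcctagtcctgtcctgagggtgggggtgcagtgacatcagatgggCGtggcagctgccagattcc
Lama5: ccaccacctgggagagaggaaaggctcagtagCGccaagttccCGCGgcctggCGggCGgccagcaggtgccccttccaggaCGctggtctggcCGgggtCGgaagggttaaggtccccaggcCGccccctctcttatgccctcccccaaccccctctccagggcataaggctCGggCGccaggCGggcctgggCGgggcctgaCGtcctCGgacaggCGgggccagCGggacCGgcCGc
The letters CG, which read the same on both strands, occurred 1 time in the Lamb3 run and 19 times in the Lama5 run. In the other Lamb3 window they occurred 3 times. The windows of Lama2, Lamb2 and Lamb1, chains whose groups also overlapped, held 0, 3 and 14. A low count was thus not particular to the chain with separated groups. Over all 32851 windows of this length the median was 5, and 91.6% held at least 1. Of these windows, 19.8% held no more than the Lamb3 run and 83.6% no more than the Lama5 run. The count describes these letters and says nothing of what binds there.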

How the data were processed

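Total RNA-seq of 5 control and 5 Dot1l-cKO samples was used, grouped by their titles. The members and gene lists were chosen with earlier results of these data known. The authors trimmed the reads (Trim Galore 0.2.8), mapped them to mm10 (TopHat2 2.0.9) and counted them per Ensembl gene by strand (HTSeq 0.6.0), per the methods and processing notes. The deposited counts were tested as whole numbers. The deposited signal, counts divided by a DESeq2 1.6.1 size factor, served as an alternative. Genes were kept with filterByExpr (about 10 counts at the median library size), normalised with TMM and tested with edgeR 4.0.16 in R 4.3.3 without a covariate, with Benjamini-Hochberg adjustment over all genes and a threshold of 0.05. SE is the log2 fold change divided by the root of F and is approximate. Levels are CPM, and correlations use log2 CPM with a prior count of 2.

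Named genes were all 9 members, and in each list every gene past the threshold and the 2 with the largest mean CPM. They were further the genes within 500 kb of Lama3 and the 5 genes most correlated with Lama3 before and after removing genotype means. Symbols, coordinates and exon lengths come from GENCODE M21 (GRCm38, the same build), which named 42462 of 43629 identifiers. The rest held 0.268% of counts. Ntn3 had no row, and some genes of the lists are not reported here. Same-numbered samples deviated together (r over genes 0.13 to 0.60), so the numbers were taken to pair the samples. Replicates of a group differed beyond sampling noise (chi-square per degree of freedom at least 30.8 in 20 pairs), and p-values measure the spread between these samples. On simulated counts for this comparison, with 200 of 17039 genes changed by 1 log2 unit, edgeR recovered 70.0% and 3.45% of its calls were false. Reads carry no molecular identifiers. Alternatives were DESeq2 1.42.0, DESeq2 size factors, 2 filters, a replicate and a header-number block, each set of samples by header number, limma 3.58.1 on the normalised counts (log2 with a pseudocount of 1 or 0.5) and leaving out each sample. A meningeal marker covariate, leaving out the samples highest in these markers, and the relations to markers with both kinds of permutation were added after seeing the data.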

Additional observations from a re-analysis of the deposited data

How the results depend on the processing

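The rule used this contrast, so the members' values here are a description. Past the threshold were 2 chains, and 0 within the 4 samples with header number 57, where 1 gene in all passed, 1 higher and 0 lower. Lama3 ranged from 2.12 to 2.27 over 12 alternatives and from 2.11 to 2.36 with a sample left out, and Lamb3 from 1.14 to 1.35 and from 1.19 to 1.36. With the replicate block these were 2.23 and 1.28. The block changed no call among the 9 chains and the genes near Lama3. The listed gene past the threshold was 1, Col4a4, and 3 passed with the block, which dropped Col4a4 and added Ntng2, Ntn4 and B3galnt2 (edgeR adjusted p = 0.0255). DESeq2 gave 3 listed genes and 1 gene near Lama3, against 0. With the meningeal marker level as a covariate 2 listed genes passed, without the 2 samples highest in these markers 1 did, and with 1 sample left out 0 to 3 did. With samples permuted freely within genotype in place of by pair, 6 of the 7 other chains in place of 3 passed by r with the meningeal markers and 5 in place of 2 with the pericyte markers. The 1212 DE genes of this comparison became 2011 with DESeq2 (663 lower, against 246) and 745 in the 6 samples outside header number 57 (590 higher, against 966, and 155 lower). Lower genes were 495 with the replicate block and 597 with the header-number block. With a sample left out the counts were 750 to 1357, 624 to 1076 higher and 126 to 343 lower, and genes near Lama3 stayed at 0. The cause of these shifts was not tested, beyond the smaller number of samples where samples were left out. With 14 to 67 counts per control sample for Lamb3 and Lama3, counting error adds to the spread between samples. Of the 9 chains and Lamc3, no sample stood apart from the other 4 of its group by Dixon's criterion.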
